A study of Mus musculus with 15 samples.

Results

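Docosahexaenoic acid (DHA) is the omega-3 fatty acid from which D-series resolvins such as RvD6 are made. The genes described here are 9 genes that make, carry, activate, store and release it, Fads1, Fads2, Elovl2, Elovl5, Acsl6, Mfsd2a, Fabp5, Lpcat3 and Pla2g6. They were taken by symbol from the 55573 genes counted in mouse trigeminal ganglia (TG), and all 9 passed the filter on low counts that left 16567 genes for testing.

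The TG holds the cell bodies of the sensory neurons that innervate the cornea. In male CD1 mice bought at the age of 10 weeks, a 2 mm area of the right cornea lost its epithelium and anterior stroma, and the eye then received vehicle, RvD6-standard or RvD6-isomer 3 times a day for 12 days before the TG of that side was taken. RvD6-standard is resolvin D6 and RvD6-isomer is its stereoisomer, named RvD6si by the study. There were 5 TG in each group, numbered 1 to 5 (vehicle), 6 to 10 (RvD6-standard) and 11 to 15 (RvD6-isomer), every one from the side of an injured eye, so that an uninjured level is not part of these comparisons. The doses of the lipids in this experiment are not given in the sources used here. A mouse has a single TG on that side, so the 5 TG of a group stand for 5 mice as far as the sources tell, with 1 library each, and the p-values measure the spread between these TG.

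DHA can be built from shorter dietary precursors by alternating desaturases and elongases, followed by a peroxisomal shortening step, or it can be taken up preformed from the blood. Inside the cell it is bound by carrier proteins, activated to its coenzyme A ester and esterified into membrane phospholipids, from which phospholipases release it again. Neural membranes are known for a high DHA content.

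Total counts per TG ranged from 4125962 to 9903396, with medians of 9147139 in vehicle, 7235362 in RvD6-standard and 6862705 in RvD6-isomer. The defining genes of the tissue were present, with all 15 sensory neuron markers, all 9 satellite glia markers and all 10 myelinating Schwann cell markers counted. Some TG stood apart by genes of other cell types. The summed normalized counts of the 10 erythroid markers in the table were 17158 to 36323 in vehicle, 41701 to 77124 in RvD6-standard and 6785 to 86433 in RvD6-isomer, where replicate 15 had the highest sum and the other 4 had at most 19018. The 10 granulocyte precursor markers gave 789 to 4233, 5042 to 16613 and 392 to 14181, again with replicate 15 highest among the RvD6-isomer TG and the other 4 at most at 911. The 11 skeletal muscle markers reached 14601 and 22949 in RvD6-standard replicates 8 and 9 against 359 to 1372 in vehicle. Replicate 15 also had the lowest total count of all 15. The satellite glia markers summed to 64342 to 77088 in vehicle, 51870 to 63680 in RvD6-standard and 47413 to 69001 in RvD6-isomer. Against vehicle, 2 of the 9 were lower in RvD6-isomer and 1 in RvD6-standard at an unadjusted p below 0.05, and 0 were higher. Of all genes, 7.3% and 5.99% were lower at that level, and 8.69% and 7.63% higher. The median log2 fold changes of the 9 were 0.13 and 0.03. The adipocyte markers summed to 64.1 to 113 in vehicle and to 156 to 389 in RvD6-standard, which did not overlap, and to 23.2 to 259 in RvD6-isomer. The pituitary marker sums varied widely within each group, with medians of 657 in vehicle, 5438 in RvD6-standard and 411 in RvD6-isomer. They were 27038 in vehicle replicate 3 against 71.4 to 2452 in the other 4 vehicle TG. In RvD6-standard they were 1627 to 5917 apart from replicate 10 at 16780.0, and in RvD6-isomer 146 to 4877. Against vehicle 0 genes of any of the marker lists were called by edgeR. It called 0.67% of all genes for RvD6-isomer and 0.0% for RvD6-standard, so the latter left no room for a call. In RvD6-standard 4 of 8 fibroblast and 4 of 10 macrophage genes were higher at an unadjusted p below 0.05, beside 7.63% of all genes. Between the lipids, edgeR called 7 of 10 tested muscle and 1 of 8 fibroblast markers lower in RvD6-isomer, beside 0.235% of all genes. At an unadjusted p below 0.05, all 10 muscle, 8 of 10 erythroid, 5 of 10 macrophage and 4 of 8 fibroblast markers were lower there. None of these 4 lists had a higher marker at that level, and of all genes 4.64% were lower and 4.18% higher. Adipocyte Lep and pituitary Lhb had 0 counts in all 15 TG. Several results below are also given without 3 TG. These were RvD6-standard replicates 8 and 9, highest in muscle genes, and RvD6-isomer replicate 15, rich in marrow (erythroid and granulocyte precursor) genes. RvD6-standard replicates 6, 7 and 10 stayed in, with granulocyte precursor sums of 13241, 16613 and 15778. Replicates 8 and 9 had 7421 and 5042. The part of these markers in the results was not tested.

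**Figure D1:**
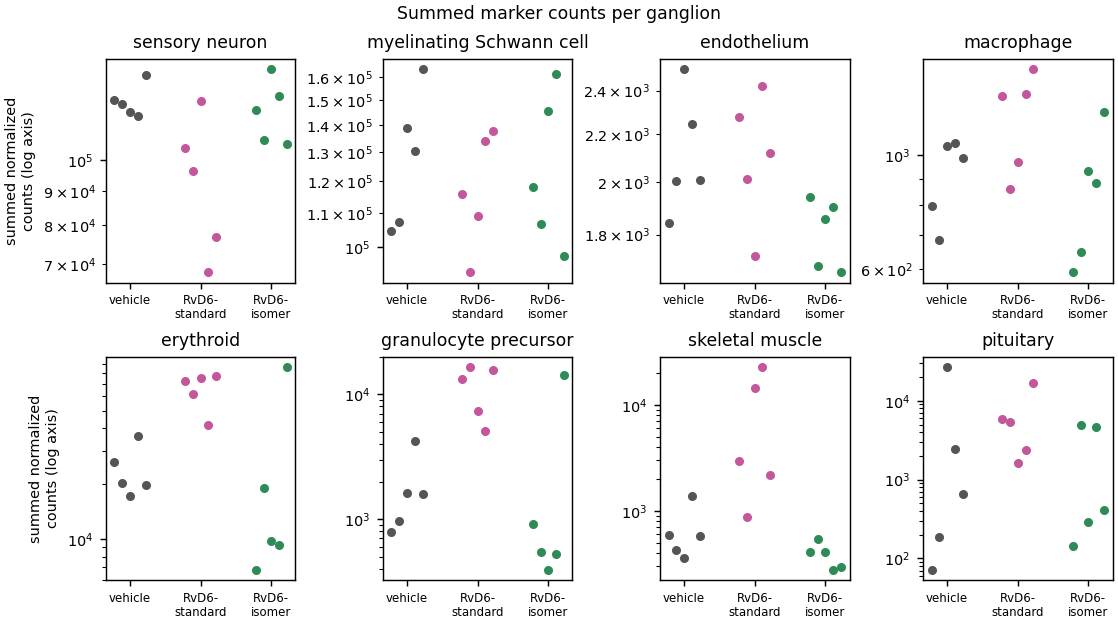
Summed normalized counts of 8 fixed lists of cell type markers (log axis) for each TG, with the groups along the horizontal axis and a point for each TG. RvD6-standard TG and RvD6-isomer replicate 15 had the high erythroid and granulocyte precursor sums, and RvD6-standard replicates 8 and 9 the high muscle sums of 14601 and 22949.

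Acsl6, Elovl5 and Mfsd2a are the genes on which the comparisons below turn most, Acsl6 and Elovl5 for high values in RvD6-isomer against both other groups and Mfsd2a for low values in both lipid groups. Their upstream sequences are shown so that these genes can be read beside their values. RefSeq (GRCm38.p6) gave a promoter window for 7 of the 9 genes, and the 250 bases before the listed start are printed 5′ to 3′ on the strand of the gene. Capitals mark matches to 3 short motifs on either strand. One is the E-box, spelled CACGTG. Another is the CCAAT box, with the letters of its name. The last is the GC box, spelled GGGCGG. A match on the opposite strand appears as the reverse complement.
Acsl6: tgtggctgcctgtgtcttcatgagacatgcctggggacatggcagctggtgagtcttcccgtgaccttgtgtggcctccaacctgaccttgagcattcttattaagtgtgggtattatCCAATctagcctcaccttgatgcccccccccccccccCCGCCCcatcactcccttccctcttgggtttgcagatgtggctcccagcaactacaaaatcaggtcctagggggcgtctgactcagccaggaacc
Elovl5: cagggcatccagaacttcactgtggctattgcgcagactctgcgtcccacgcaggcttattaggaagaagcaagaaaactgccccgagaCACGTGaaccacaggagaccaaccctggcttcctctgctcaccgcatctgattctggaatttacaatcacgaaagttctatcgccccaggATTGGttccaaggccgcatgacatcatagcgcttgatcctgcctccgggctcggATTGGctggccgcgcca
Mfsd2a: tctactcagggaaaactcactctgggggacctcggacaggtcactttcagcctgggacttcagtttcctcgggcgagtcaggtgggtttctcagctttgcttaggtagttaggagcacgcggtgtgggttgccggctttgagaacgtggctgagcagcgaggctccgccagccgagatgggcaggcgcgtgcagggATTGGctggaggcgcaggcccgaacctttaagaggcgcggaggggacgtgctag

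The Acsl6 window is chr11:54303574-54303823 on the plus strand, the first of 3 that RefSeq starts give for this gene. It held 1 CCAAT box, 1 GC box and 3 CG dinucleotides, against a median of 6 over all windows. The second Acsl6 window, chr11:54303954-54304203, held 2 GC boxes and 30 CG dinucleotides, and the third, chr11:54314653-54314902, held 1 CCAAT box, 1 GC box and 1 CG dinucleotide. The Elovl5 window, chr9:77917115-77917364 on the plus strand, held 1 E-box, 2 CCAAT boxes and 14 CG dinucleotides. The Mfsd2a window, chr4:122961189-122961438 on the minus strand, held 1 CCAAT box and 17 CG dinucleotides. Among 32851 windows of the same length, 6.02% held the E-box, 33.8% a CCAAT box and 32.7% a GC box. These matches describe the letters of the windows and no binding was measured here.

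Levels were compared between genes as RPKM (counts per kilobase of exon, scaled to the library), because a longer transcript collects more reads. Elovl5, which elongates polyunsaturated fatty acids of intermediate length, had the highest level at 89.6 ± 15.7 (mean ± SD over 15 TG), above the next gene in all 15 TG. Mfsd2a (49.7 ± 9.86) and Fads1 (49.5 ± 14.4) followed and did not separate, with Mfsd2a above Fads1 in 8 of 15 TG and the order of their means turned when raw library totals replaced the TMM library sizes. Fabp5 was at 35.4 ± 9.11 and Fads2 at 26.9 ± 6.27, the former higher in 12 of 15 TG. A clear step followed, as Fads2 exceeded Acsl6 (10.0 ± 2.64) in all 15. Acsl6, Lpcat3 (7.31 ± 2.28) and Pla2g6 (6.03 ± 1.31) lay close together, with Acsl6 above Lpcat3 in 12 and Lpcat3 above Pla2g6 in 10 of 15 TG. Elovl2, the elongase of the longest precursors, was lowest at 2.36 ± 1.09, below Pla2g6 in 14 of 15 TG. Among all genes tested, the mean level of Elovl5 was at the 96.4th percentile and that of Elovl2 at the 35.4th.

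**Figure D2:**
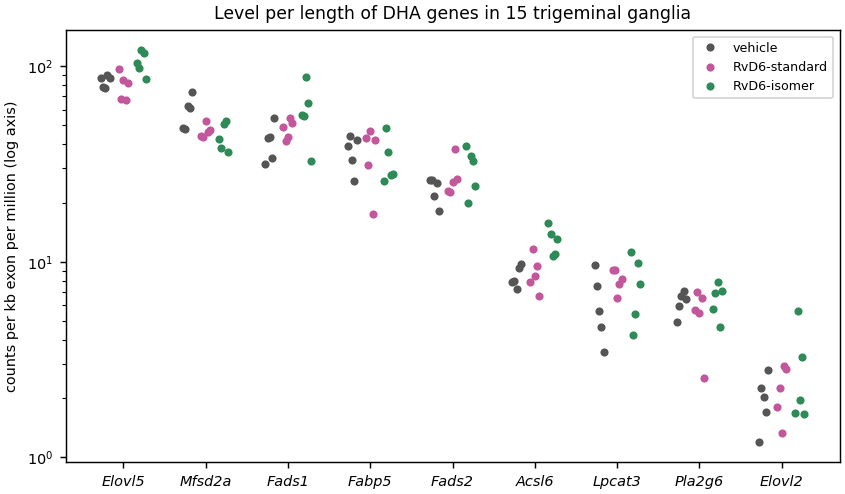
Level of each gene in RPKM (log axis) in the 15 TG, ordered by mean, with a point for each TG coloured by group. Elovl5 was highest in every TG, and the step between Fads2 and Acsl6 held in all 15.

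Within each TG the ratio of Elovl5 to Elovl2, on the same scale per length, had a median of 38.0 in vehicle (31.2 to 72.9), 30.0 in RvD6-standard (22.9 to 64.0) and 52.0 in RvD6-isomer (17.4 to 61.5). The ratio of Fads1 to Fads2 had a median of 1.63 in vehicle (1.21 to 2.98), 1.82 in RvD6-standard (1.45 to 2.13) and 1.99 in RvD6-isomer (1.344 to 2.76). For both ratios the 3 groups overlapped.

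The groups were compared in normalized counts, which are counts divided by the size factor of each library, and the test was edgeR's quasi-likelihood F test with all 15 TG. A gene was called when its p, adjusted over all 16567 genes, was below 0.05. In whole ganglia, fewer cells of a type and less RNA per cell cannot be told apart. Both lipid groups were set against the same 5 vehicle TG, so those comparisons are not independent of each other.

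None of the 9 genes was called by edgeR in any of the 3 comparisons. For RvD6-isomer against vehicle this was 0 of 9 genes, beside 0.67% of all genes tested. At an unadjusted p below 0.05, 3 of 9 (Acsl6, Fads1 and Elovl5) were higher, beside 8.69% of all genes, and 1 of 9 (Mfsd2a) was lower, beside 7.3% of all genes. DESeq2 called 1 of 9, Acsl6, beside 8.13% of the 11321 genes to which it gave an adjusted p. The groups did not overlap for 1 of 9, again Acsl6, beside 4.88% of all genes. The median log2 fold change was 0.33 over the 9 genes and 0.02 over all genes tested, and 7 of the 9 were above 0.

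For RvD6-standard against vehicle 0 of 9 genes were called, beside 0.0% of all genes, and at an unadjusted p below 0.05, 0 of 9 were higher beside 7.63% and 1 of 9, Mfsd2a, was lower beside 5.99%. DESeq2 called 0 of 9 beside 1.92%, and no gene of the 9 had groups without overlap beside 3.72%. The median log2 fold change was 0.06, against 0.02 over all genes. For RvD6-isomer against RvD6-standard 0 of 9 were called beside 0.235%, 2 of 9 (Acsl6 and Elovl5) were higher at an unadjusted p below 0.05 beside 4.18% and 0 of 9 lower beside 4.64%. DESeq2 called 0 beside 0.936%, and 0 of 9 had groups without overlap beside 1.74%. The median was 0.25, against -0.00386 over all genes.

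**Figure D3:**
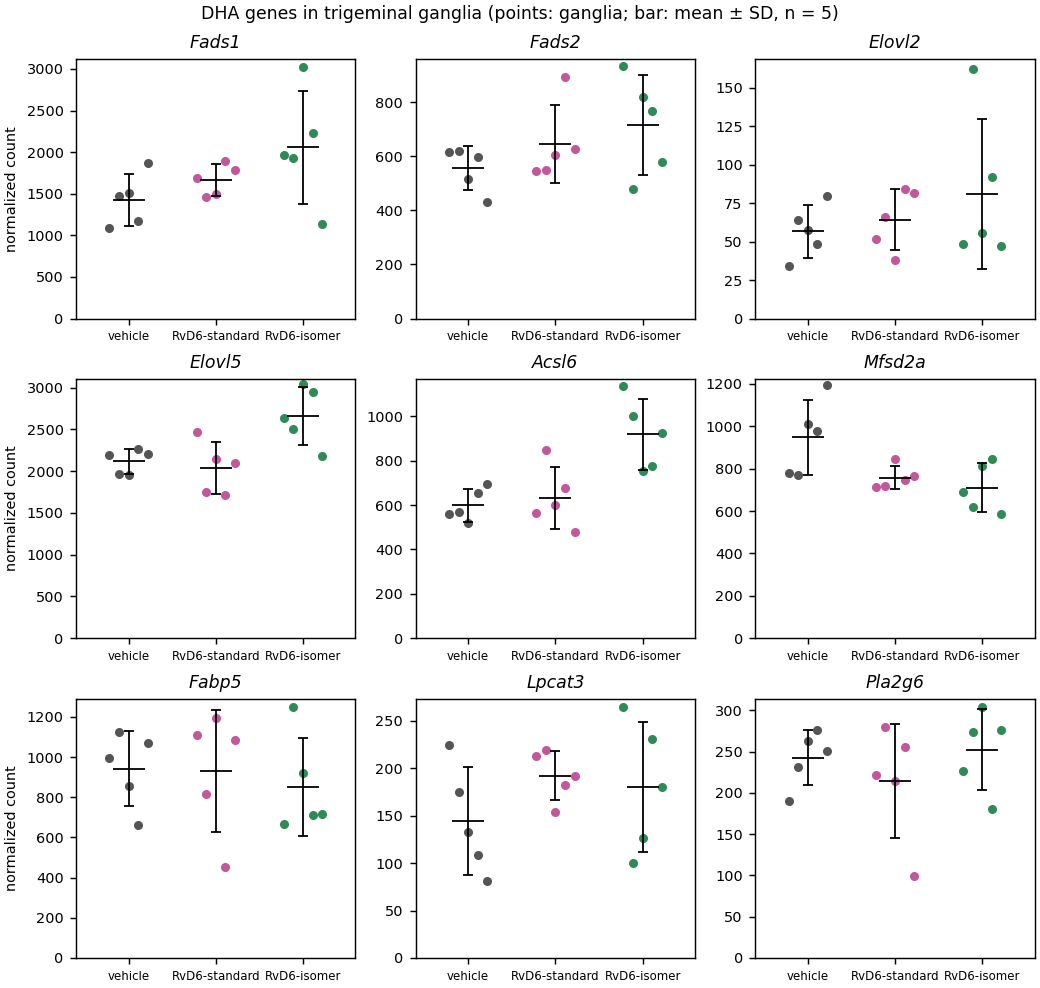
Normalized counts of the 9 genes in each TG, with points for the 5 TG of each group and bars for the mean ± SD on axes that start at 0. All 5 RvD6-isomer values of Acsl6, from 755 to 1136, lie above the highest vehicle value of 695.

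Fads2 and Fads1 encode the desaturases that add double bonds on the way to DHA, Fads2 acting first. The genes lie near each other on chromosome 19 of GRCm38, Fads2 (ENSMUSG00000024665.8) at 10062765 to 10101746 on the minus strand and Fads1 (ENSMUSG00000010663.5) at 10182888 to 10196877 on the plus strand. Fads1 had 1084, 1474, 1510.1, 1172 and 1873 normalized counts in vehicle replicates 1 to 5, 1695, 1456, 1493, 1895 and 1789 in RvD6-standard replicates 6 to 10, and 1971, 1935, 3022, 2229.6 and 1136 in RvD6-isomer replicates 11 to 15. In RvD6-isomer 4 of 5 TG were above every vehicle TG, while replicate 15 was among the lowest of all. RvD6-isomer against vehicle gave a log2 fold change of 0.53 (standard error 0.20, 95% interval 0.10 to 0.96, unadjusted p = 0.0178, edgeR adjusted p = 0.205). Without replicate 15 it was 0.68 (edgeR adjusted p = 0.0723), and without replicate 13, the highest, it was 0.34 (unadjusted p = 0.0913, edgeR adjusted p = 0.386). RvD6-standard gave 0.21 against vehicle (-0.21 to 0.64, edgeR adjusted p = 0.685), and RvD6-isomer exceeded RvD6-standard by 0.32 (-0.11 to 0.74, edgeR adjusted p = 0.698). That last value was 0.13 without RvD6-isomer replicate 13 and 0.50 without RvD6-standard replicates 8 and 9 and RvD6-isomer replicate 15 (edgeR adjusted p = 0.369). The value for RvD6-standard ran from 0.13 without vehicle replicate 1 to 0.33 without vehicle replicate 5.

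Fads2 had 615, 619, 517, 597 and 431 normalized counts in vehicle, 546, 548, 604, 894 and 627 in RvD6-standard, and 934, 480.04, 819, 769 and 579 in RvD6-isomer. In RvD6-isomer 3 TG were above every vehicle TG and 2 lay within the vehicle range, and in RvD6-standard replicates 9 and 10 were above it, replicate 9 by far the most. Against vehicle, the log2 fold change was 0.36 for RvD6-isomer (-0.04 to 0.76, edgeR adjusted p = 0.369) and 0.20 for RvD6-standard (-0.20 to 0.60, edgeR adjusted p = 0.693). Without RvD6-standard replicate 9 the latter was 0.04, and without RvD6-standard replicates 8 and 9 and RvD6-isomer replicate 15 it was 0.03. Between the lipids the difference was 0.16 (-0.24 to 0.56), and it was 0.41 without those 3 TG (edgeR adjusted p = 0.511) and 0.06 without RvD6-isomer replicate 11.

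Elovl5 and Elovl2 encode the elongases of the same route. Elovl5 (ENSMUSG00000032349.13) lies on chromosome 9 at 77917364 to 77984519 on the plus strand. It had 2193, 1963, 1951, 2264 and 2209 normalized counts in vehicle, 2467, 1750.2, 2149, 1717 and 2094 in RvD6-standard, and 2635, 2504, 3039.6, 2952 and 2178 in RvD6-isomer. Vehicle TG were close together, and 4 of 5 RvD6-isomer TG were above all of them and above all RvD6-standard TG. Replicate 15 was the one within the vehicle range. The log2 fold change was 0.33 for RvD6-isomer against vehicle (0.05 to 0.60, unadjusted p = 0.0211, edgeR adjusted p = 0.217), -0.07 for RvD6-standard against vehicle (-0.34 to 0.20, edgeR adjusted p = 0.865) and 0.40 for RvD6-isomer against RvD6-standard (0.12 to 0.67, unadjusted p = 0.00680, edgeR adjusted p = 0.320). Without replicate 15 the first was 0.39 (edgeR adjusted p = 0.153) and the last 0.46 (edgeR adjusted p = 0.126). Without RvD6-isomer replicate 13, the highest, they were 0.27 and 0.34. Over the fits that each left out a TG, their edgeR adjusted p reached 0.383 and 0.587. The first had an unadjusted p below 0.05 in 13 of these 15 fits, and the last in all 15.

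Elovl2 (ENSMUSG00000021364.16), on chromosome 13 at 41182381 to 41220405 on the minus strand, was thinly counted, with 27 to 203 raw counts per TG. It had 33.9, 64.1, 57.8, 48.2 and 79.8 normalized counts in vehicle, 51.6, 65.8, 37.8, 84.3 and 81.5 in RvD6-standard, and 48.6, 162, 55.7, 92.1 and 47.1 in RvD6-isomer. The groups overlapped over most of their range, with RvD6-isomer replicate 12 alone far above the rest. Its log2 fold change in RvD6-isomer against vehicle was 0.52 (-0.25 to 1.29, edgeR adjusted p = 0.524), and it was 0.11 without replicate 12. RvD6-standard gave 0.16 (-0.61 to 0.94), with 0.02 without vehicle replicate 1 and 0.32 without vehicle replicate 5. The gap from RvD6-standard to RvD6-isomer was 0.35 (-0.42 to 1.12), and it turned to -0.06 without RvD6-isomer replicate 12.

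**Figure D4:**
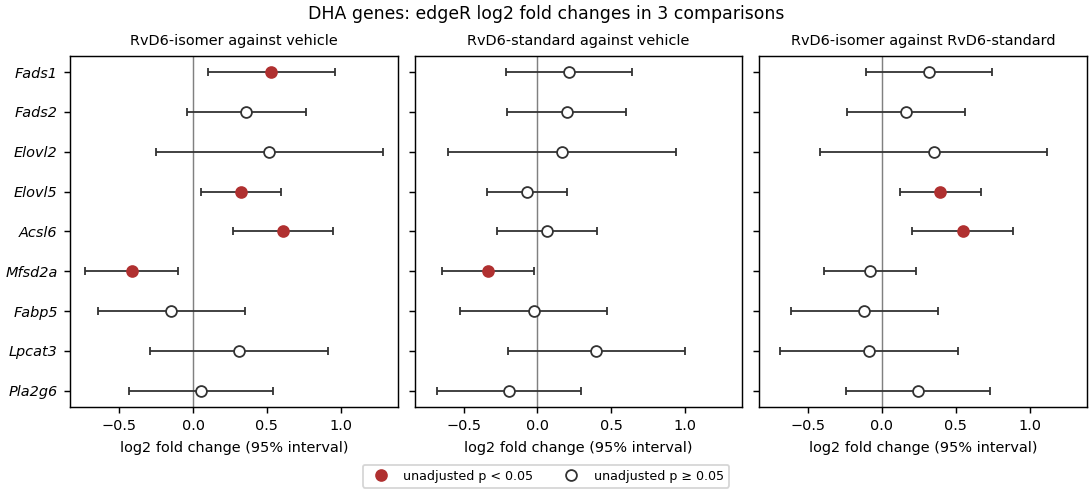
Log2 fold changes of the 9 genes (horizontal axis, with 95% intervals from edgeR) in the 3 comparisons, red where the unadjusted p was below 0.05. Acsl6 and Elovl5 were higher in RvD6-isomer at this level against both other groups, Fads1 against vehicle, and Mfsd2a was lower in each lipid group against vehicle.

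Mfsd2a encodes the transporter that carries DHA as lysophosphatidylcholine across the endothelium of blood-tissue barriers. The gene (ENSMUSG00000028655.11) lies on chromosome 4 at 122946850 to 122961188 on the minus strand. It had 781, 769.6, 1012, 979 and 1193 normalized counts in vehicle, 711, 718, 845, 749 and 765 in RvD6-standard, and 689, 621, 811, 847 and 587 in RvD6-isomer. In RvD6-standard 4 of 5 TG, and in RvD6-isomer 3 of 5, were below every vehicle TG, and the highest vehicle values were not reached in either lipid group. Against vehicle, the log2 fold change was -0.42 for RvD6-isomer (-0.73 to -0.10, unadjusted p = 0.0120, edgeR adjusted p = 0.176) and -0.34 for RvD6-standard (-0.65 to -0.02, unadjusted p = 0.0370, edgeR adjusted p = 0.335). The lipids differed by -0.08 (-0.39 to 0.23, edgeR adjusted p = 0.925). Without vehicle replicate 5, the highest TG, the values against vehicle were -0.31 and -0.24. The 10 endothelial markers, all of them counted, summed to 1841 to 2504 in vehicle, 1725 to 2421 in RvD6-standard and 1669 to 1939 in RvD6-isomer. Of the 10, 1 was lower in RvD6-isomer than in vehicle at an unadjusted p below 0.05, beside 7.3% of all genes. In RvD6-standard 2 of the 10 were higher and 1 lower than in vehicle at that level, beside 7.63% and 5.99% of all genes. The median log2 fold change of the 10 against vehicle was -0.00236 in RvD6-isomer and 0.16 in RvD6-standard. The part of endothelial content in the Mfsd2a values was not tested.

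Acsl6 encodes an acyl-CoA synthetase of neurons that activates DHA, which keeps it inside the cell. The gene (ENSMUSG00000020333.17) lies on chromosome 11 at 54303798 to 54364756 on the plus strand, and 202 bases (2.0%) of its exons overlap the antisense gene Gm12224, and the counting, made without strand, left out reads on both genes. It had 559, 568, 518, 656 and 695 normalized counts in vehicle, 565, 848, 599.6, 678 and 477 in RvD6-standard, and 1136, 1002, 755, 776 and 927 in RvD6-isomer. All 5 RvD6-isomer TG were above every vehicle TG, and 3 of them were above every RvD6-standard TG, whose replicate 7 reached into the RvD6-isomer range. The log2 fold change of RvD6-isomer against vehicle was 0.61, or 1.53-fold (standard error 0.16, 95% interval 0.27 to 0.95, unadjusted p = 0.00137, edgeR adjusted p = 0.0781), and DESeq2 gave an adjusted p of 0.00935. By its p the gene stood at rank 287 of 16567. In RvD6-standard it was 0.06 (-0.27 to 0.40, edgeR adjusted p = 0.903). The difference between the lipids, tested directly, was 0.55 (0.21 to 0.89, unadjusted p = 0.00337, edgeR adjusted p = 0.260).

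The edgeR call of Acsl6 depended on the setting. Requiring at least 10 counts in every TG brought its adjusted p to 0.0462, and leaving out each TG in turn gave log2 fold changes of 0.53 to 0.68 with adjusted p of 0.0654 to 0.220. Without RvD6-standard replicates 8 and 9 and RvD6-isomer replicate 15 the value was 0.62 (edgeR adjusted p = 0.124). The exons of Acsl6 span 9914 bases, longer than those of 91.1% of genes tested, and fold changes against vehicle differed with gene length in both lipid groups. Under RvD6-isomer the median log2 fold change was 0.15 in the 3313 longest genes and -0.27 in the 3313 shortest. Under RvD6-standard these medians were 0.17 and -0.13, and between the lipids -0.00709 and -0.10. With the trend on length removed from each TG, Acsl6 in RvD6-isomer against vehicle was at 0.44 (unadjusted p = 0.00891, edgeR adjusted p = 0.177). Between the lipids Acsl6 was then at 0.55 (edgeR unadjusted p = 0.00183, edgeR adjusted p = 0.200). The same step took the RvD6-isomer value of Fads1 against vehicle to 0.40, no longer below an unadjusted p of 0.05 (edgeR unadjusted p = 0.0588). Elovl5 was then at 0.29 and Mfsd2a at -0.29 (edgeR unadjusted p = 0.0242 and 0.0301). For RvD6-standard against vehicle, Mfsd2a was at -0.22 (edgeR unadjusted p = 0.0971) and Fads1 at 0.13. The 15 sensory neuron markers summed to 116139 to 133619 in vehicle, 68061 to 122527 in RvD6-standard and 105653 to 136408 in RvD6-isomer. At an unadjusted p below 0.05, 0 of 15 were higher and 1 lower in RvD6-isomer than in vehicle, beside 8.69% and 7.3% of all genes. In RvD6-standard 8 of 15 were lower than in vehicle at that level, beside 5.99% of all genes. Of the same 15, 2 were higher in RvD6-isomer than in RvD6-standard, beside 4.18% of all genes. Of the 10 myelinating Schwann cell markers, 4 were higher and 1 lower in RvD6-isomer than in vehicle at an unadjusted p below 0.05, beside the 8.69% and 7.3% of all genes, with a median log2 fold change of 0.38, while their summed normalized counts were 97735 to 161112 in RvD6-isomer and 104623 to 163389 in vehicle. The part of neuronal content in the Acsl6 values, and of Schwann cell content in the Acsl6, Elovl5 and Fads1 values, was not tested.

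Fabp5 encodes a fatty acid-binding protein that carries DHA through the cytosol. The gene (ENSMUSG00000027533.10) lies on chromosome 3 at 10012548 to 10016607 on the plus strand. It had 996, 1126, 854, 662 and 1068 normalized counts in vehicle, 1109, 817, 1195, 454 and 1086 in RvD6-standard, and 665, 1252, 920.1, 711 and 717 in RvD6-isomer. The ranges overlapped widely, with the highest single value in RvD6-isomer and the lowest in RvD6-standard. Its log2 fold change was -0.15 for RvD6-isomer against vehicle (-0.64 to 0.35) and -0.03 for RvD6-standard (-0.52 to 0.47), with edgeR adjusted p of 0.814 and 0.973. The former ran from -0.32 without RvD6-isomer replicate 12 to -0.07 without RvD6-isomer replicate 11, and the latter turned sign, from -0.14 without RvD6-standard replicate 8 to 0.14 without RvD6-standard replicate 9. In folds, the interval for RvD6-isomer ran from 0.641 to 1.27 and that for RvD6-standard from 0.696 to 1.38. Of the 75-base stretches of its transcripts, 3.03% also occur in the transcripts of Gm6166 or Gm14328, so part of its reads may have been left uncounted.

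Lpcat3 and Pla2g6 act on the acyl chains of membrane phospholipids, Lpcat3 by putting polyunsaturated chains in and Pla2g6, a calcium-independent phospholipase A2, by releasing them. Lpcat3 (ENSMUSG00000004270.13), on chromosome 6 at 124663027 to 124704418 on the plus strand, had 224, 175, 132, 108 and 80.6 normalized counts in vehicle, 213, 219, 154, 182 and 192 in RvD6-standard, and 264, 99.8, 126, 231 and 180.4 in RvD6-isomer. All 5 RvD6-standard TG were above the vehicle median but none was above the highest vehicle TG. Lpcat3 had a log2 fold change of 0.40 for RvD6-standard (-0.20 to 1.00, edgeR adjusted p = 0.572) and 0.31 for RvD6-isomer (-0.29 to 0.92, edgeR adjusted p = 0.643). The former was 0.61 without vehicle replicate 1 and 0.25 without vehicle replicate 5, and the latter 0.53 without vehicle replicate 1 and 0.14 without RvD6-isomer replicate 11. Its exons share 334 bases, 10.2% of their length, with Emg1 on the other strand, and the counting did not use strand and dropped reads on both genes.

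Pla2g6 (ENSMUSG00000042632.17), on chromosome 15 at 79286228 to 79328390 on the minus strand, had 190.3, 231, 262, 276 and 251 normalized counts in vehicle, 221, 279, 214, 255 and 99.7 in RvD6-standard, and 227, 273, 304, 180.02 and 276 in RvD6-isomer. Except for RvD6-standard replicate 10, the TG of the 3 groups covered much the same range. The log2 fold change was 0.05 for RvD6-isomer (-0.43 to 0.54, edgeR adjusted p = 0.941) and -0.19 for RvD6-standard (-0.68 to 0.29, edgeR adjusted p = 0.762). Between the lipids it was 0.25 (-0.24 to 0.73). Without RvD6-standard replicate 10 these last values were -0.01 and 0.07, and without RvD6-standard replicates 8 and 9 and RvD6-isomer replicate 15 the one for RvD6-standard was -0.30.

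Across the 15 TG, the genes of the same route did not form a single pattern. In log2 CPM, which scales each library to a common total, Pearson's r was 0.41 between Fads1 and Fads2, 0.55 between Fads1 and Elovl5, 0.27 between Fads2 and Elovl5 and 0.35 between Elovl5 and Acsl6. Lower values were seen between Acsl6 and Mfsd2a (-0.46), Lpcat3 and Mfsd2a (-0.52) and Fads2 and Fabp5 (-0.61), the lowest of the 36 pairs. These correlations describe 15 libraries that share their groups and differ in depth.

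By the same measure, each gene had other tested genes whose pattern was most like its own over the 15 TG. For Acsl6 these were Elavl4 (r = 0.92), and Baiap2l1 (0.89). For Mfsd2a they were Stx5a (0.92) and 1110004F10Rik (0.91). Elovl5 was followed most closely by Dgkg (0.90) and Zfyve28 (0.88), Fads2 by Rrn3 (0.91) and Ncoa4 (0.89), and Fads1 by Ctnnb1 (0.88) and Lurap1 (0.85). The nearest genes were Tmem233 (0.86) and Midn (0.79) for Fabp5, G2e3 (0.87) and Pcdhga4 (0.85) for Lpcat3, 2810032G03Rik (0.87) and Atcay (0.81) for Pla2g6, and Peli2 (0.78) and Fgf4 (0.78) for Elovl2. Each pair was picked from all genes tested as the most alike, so the size of r is fixed by that choice.

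Beside the 9 genes, 81 genes of neighbouring steps were examined, of which 76 were tested. Slc27a6, Pla2g4b, Pla2g5, Ppard and Hnf4a did not pass the filter. In RvD6-isomer 3 of the 76 were called higher than in vehicle and 0 lower by edgeR, beside the 0.67% of all genes, while DESeq2 called 9 higher and 2 lower, beside the 8.13% it called of all genes. In RvD6-standard against vehicle 0 of 76 were called by edgeR. At an unadjusted p below 0.05, 12 of the 76 were higher there, beside the 7.63% of all genes, and 6 lower, beside the 5.99%. DESeq2 called 4, beside its 1.92%. Between the lipids 0 of 76 were called by edgeR, with 7 higher at an unadjusted p below 0.05 beside the 4.18% of all genes and 1 lower beside the 4.64%, and DESeq2 called 1 beside its 0.936%. The median log2 fold change of the 76 was 0.12 for RvD6-isomer and 0.06 for RvD6-standard against vehicle.

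Elovl4, the elongase of very long chain fatty acids, was the one called among 12 genes of desaturation and elongation. It had 375 ± 47.4 normalized counts in vehicle (295 to 410.3), 463 ± 79.1 in RvD6-standard (359 to 566) and 673 ± 175 in RvD6-isomer (507 to 966), so that RvD6-isomer and vehicle did not overlap. Its log2 fold change under RvD6-isomer was 0.84 (0.46 to 1.21, edgeR adjusted p = 0.0364), and under RvD6-standard 0.29 (edgeR adjusted p = 0.502). RvD6-isomer exceeded RvD6-standard by 0.55 (edgeR adjusted p = 0.314). Over the 12 genes of this list, RvD6-isomer against vehicle had a median log2 fold change of -0.12, with 8 of 12 below 0. At an unadjusted p below 0.05, 2 of 12 were higher and 2 lower, beside 8.69% and 7.3% of all genes. DESeq2 called 2 higher and 1 lower, beside its 8.13% of all genes.

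Abcd3, a transporter of the peroxisomal membrane, was the one called among 10 genes of peroxisomal chain shortening. It had 420.4 ± 84.3 normalized counts in vehicle (286 to 518), 557 ± 182 in RvD6-standard (416 to 865) and 869 ± 163 in RvD6-isomer (699 to 1091). The log2 fold change under RvD6-isomer was 1.04 (0.61 to 1.48, edgeR adjusted p = 0.0312), and under RvD6-standard 0.39 (edgeR adjusted p = 0.422). RvD6-isomer exceeded RvD6-standard by 0.65 (edgeR adjusted p = 0.303). Of the 10 genes of this list, 3 were higher and 0 lower in RvD6-isomer than in vehicle at an unadjusted p below 0.05. All genes gave 8.69% and 7.3%. DESeq2 called 3 higher and 0 lower, beside its 8.13% of all genes.

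Pnpla8, a calcium-independent phospholipase A2 of mitochondria and peroxisomes, was the one called among 11 tested genes of phospholipases and acyl release. It had 458 ± 66.0 normalized counts in vehicle (383 to 549), 720.2 ± 138 in RvD6-standard (557 to 925) and 789.8 ± 107 in RvD6-isomer (657 to 893), and neither lipid group overlapped with vehicle. The log2 fold change was 0.78 under RvD6-isomer (0.45 to 1.11, edgeR adjusted p = 0.0325) and 0.64 under RvD6-standard (0.31 to 0.96, edgeR adjusted p = 0.119, DESeq2 adjusted p = 0.00872). The lipids differed by 0.14 (edgeR adjusted p = 0.842). Of the 11 tested genes of this list, 2 were higher and 1 lower in RvD6-isomer than in vehicle at an unadjusted p below 0.05. All genes gave 8.69% and 7.3%. DESeq2 called 1 higher and 0 lower, beside its 8.13% of all genes.

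The 3 edgeR calls of Elovl4, Abcd3 and Pnpla8 were near the threshold. Elovl4 and Abcd3 passed it in 7 and Pnpla8 in 8 of the 15 fits that left out a TG, and all 3 were lost when any 1 of the 5 vehicle TG, RvD6-isomer replicate 11 or RvD6-isomer replicate 14 was left out. Elovl4 and Abcd3 were also lost without RvD6-isomer replicate 13. The 15 fits include those without an RvD6-standard TG, which is in neither group compared here, and all 3 genes passed in each of these. Among the fits without a vehicle or RvD6-isomer TG, Elovl4 and Abcd3 passed only without RvD6-isomer replicate 12 or 15. Pnpla8 passed there only without RvD6-isomer replicate 12, 13 or 15. Without RvD6-standard replicates 8 and 9 and RvD6-isomer replicate 15 all 3 passed (edgeR adjusted p = 0.0426, 0.0200 and 0.0291), and the RvD6-standard values of Elovl4 and Abcd3 were 0.14 and 0.23. With the trend on length removed, Elovl4 passed (edgeR adjusted p = 0.0368) and Abcd3 and Pnpla8 did not (0.0574 and 0.0584).

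In the other lists 0 genes were called by edgeR under RvD6-isomer, with 1 higher and 2 lower of 13 in uptake, activation and binding, 2 higher of 14 in phospholipid acylation, 1 higher of 5 in plasmalogen synthesis and 3 higher of 11 transcriptional regulators at an unadjusted p below 0.05, beside the 8.69% higher and 7.3% lower of all genes. DESeq2 called 1 in each of these 4 lists, beside the 8.13% of all genes, namely Fabp3, Agpat1 (DESeq2 adjusted p = 0.0489), Far1 (0.00729) and Srebf1 (0.0264). Fabp3, another fatty acid-binding protein, had 267 ± 22.9 normalized counts in vehicle, 206 ± 31.6 in RvD6-standard and 164 ± 20.8 in RvD6-isomer, with a log2 fold change of -0.71 under RvD6-isomer (edgeR adjusted p = 0.0586, DESeq2 adjusted p = 0.000792), and its exons overlap genes on the other strand. With the trend on length removed it was -0.47 (edgeR adjusted p = 0.139), and it passed with at least 10 counts required in every TG (edgeR adjusted p = 0.0486) and without RvD6-standard replicate 9 (edgeR adjusted p = 0.0475). Far1, the reductase that supplies fatty alcohols for plasmalogens, had 591 ± 78.8 in vehicle, 1011 ± 312 in RvD6-standard and 1054.5 ± 315 in RvD6-isomer, with 0.83 under RvD6-isomer (edgeR adjusted p = 0.0706) and 0.76 under RvD6-standard (edgeR adjusted p = 0.169). Far1 under RvD6-isomer passed with at least 10 counts in every TG (edgeR adjusted p = 0.0371) and without RvD6-standard replicate 9 (edgeR adjusted p = 0.0472), and DESeq2 also called it under RvD6-standard (adjusted p = 0.0373). With the trend on length removed, Far1 under RvD6-isomer was 0.67 (edgeR adjusted p = 0.104). Under RvD6-isomer, Fabp3 and Far1 each passed in only 1 of the 15 fits that left out a TG. Their edgeR adjusted p reached 0.153 and 0.218 in the others. Agps of the same list gave 0.49 and 0.26, the latter 0.12 without RvD6-standard replicates 8 and 9 and RvD6-isomer replicate 15.

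Srebf1 and Srebf2, the regulators of fatty acid and sterol synthesis genes, had log2 fold changes of 0.74 and 0.65 under RvD6-isomer (edgeR adjusted p = 0.113 and 0.189) and of 0.48 and 0.60 under RvD6-standard (edgeR adjusted p = 0.365 and 0.295). The fatty acid translocase Cd36 had 27.6 ± 16.3 normalized counts in vehicle, 144 ± 107 in RvD6-standard and 50.7 ± 53.8 in RvD6-isomer, with 2.36 under RvD6-standard (edgeR adjusted p = 0.160, DESeq2 adjusted p = 0.0190). Without RvD6-standard replicates 8 and 9 and RvD6-isomer replicate 15 it was 2.08 (edgeR adjusted p = 0.322). That fit kept RvD6-standard replicates 6, 7 and 10, which had the highest granulocyte precursor sums of their group. The erythroid, granulocyte precursor, muscle and adipocyte sums given above were also high in RvD6-standard. At an unadjusted p below 0.05, all 10 granulocyte precursor, all 10 tested muscle, 9 of 10 erythroid and 1 of 3 tested adipocyte markers were higher there than in vehicle. Of all genes, 7.63% were higher at that level. The median log2 fold changes of these 4 lists were 2.57, 3.86, 1.91 and 1.62. The part of these cell types in the Cd36 values was not tested. The acyltransferases Agpat1 and Agpat4 gave 0.86 and -0.16 under RvD6-isomer (edgeR adjusted p = 0.148 and 0.792), and 0.74 and -0.72 under RvD6-standard (edgeR adjusted p = 0.279 and 0.196).

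**Figure D5:**
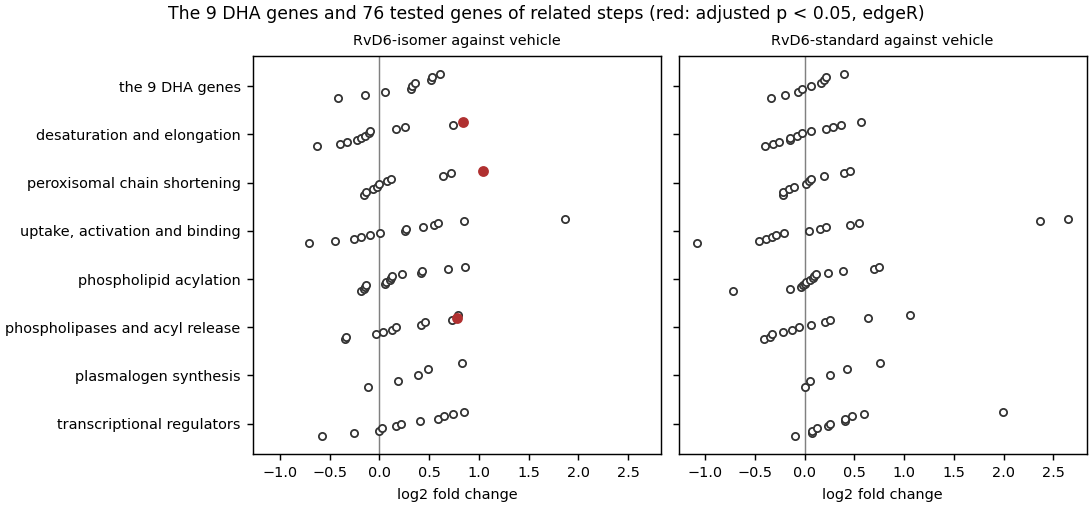
Log2 fold changes against vehicle of the 9 genes and of the 76 tested genes of 7 neighbouring steps, with a point for each gene, red where the edgeR adjusted p was below 0.05. The 3 red points, all under RvD6-isomer, are Elovl4, Abcd3 and Pnpla8.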

How the data were processed

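RNA of 15 mouse TG was reverse transcribed from 1 ng with an oligo-dT primer, amplified by an adapted Smart-seq2 protocol and sequenced without strand. The authors aligned the reads to GRCm38 with GENCODE annotation and counted them on exons with featureCounts (per the submitters' processing notes, Subread 1.6.5), leaving out reads at several places or on several genes. The deposited values are raw counts per gene. Gene positions and exons were those given with the deposited counts, and gene types came from GENCODE annotation of the same build. Each of the 15 columns took its group from the label of its sample.

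Groups were compared with edgeR 4.0.16 (R 4.3.3), by its quasi-likelihood F test on all 15 TG with TMM normalization, filterByExpr defaults and Benjamini-Hochberg adjustment over all genes tested at 0.05. Standard errors were derived from the F statistics and intervals cover 95%. Normalized counts are counts over the size factors of DESeq2 1.42.0. DESeq2 with default settings, other filters and normalizations, removal of the trend on gene length (lowess, span 0.3) and leaving out each TG were alternatives. The removal of 3 TG rich in muscle or marrow genes was added after the marker sums were seen. Levels per length used the exonic lengths of the deposited table. The fit was tested on simulated counts.

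The 9 genes, the pathway and marker lists and the rules were chosen with earlier results of these data known. Named from the lists were all genes called, or the 2 with the smallest unadjusted p against vehicle where a list had none, and for each of the 9 genes the 2 with the highest Pearson r.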

Additional observations from a re-analysis of the deposited data

Results flagged for a closer look

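Fads2 in RvD6-standard replicate 9 had 894 normalized counts, set apart from the other 4 TG of its group (546 to 627) by more than a gap test at 95% allows. It was the one such value among 27 groups of 5 tested, and chance gives about 1 in 20. Replicate 9 also had the highest skeletal muscle marker sum, 22949, whose part in the Fads2 value was not tested.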

How the results depend on the processing

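No paired analysis was possible because the groups share no replicate numbers. For the 9 genes and 3 comparisons, 603 recomputed values kept their direction and side of the threshold, 3 passed it (Acsl6, RvD6-isomer against vehicle) and 15 changed sign. Of the 9 genes, DESeq2 on all TG, DESeq2 on 2 groups and the minimum of 10 counts in every TG each called 1 for RvD6-isomer against vehicle, and leaving out single TG called 0 to 0 in all 3 comparisons. Counts of all genes called moved more than those of the 9. From 111 for RvD6-isomer against vehicle they went to 920 (DESeq2), 979 (DESeq2, 2 groups), 315 (minimum of 10), 63 (length trend removed) and 0 to 229 (a TG left out, 0 without RvD6-isomer replicate 11). From 0 for RvD6-standard against vehicle they went to 369, 664, 38 (edgeR, 2 groups), 56 (no filter), 24 (minimum of 10), 36 (3 TG left out) and 0 to 51. From 39 between the lipids they went to 185, 182, 17, 59, 23, 94 and 2 to 156. Some signs turned. Pla2g6 under RvD6-isomer was -0.0767 with the length trend removed and -0.0343 to 0.151 with a TG left out. Under RvD6-standard, Fabp5 was 0.00592 with the minimum of 10, 0.0744 without the 3 TG and -0.136 to 0.141, and Acsl6 was -0.111 with the length trend removed and -0.0572 to 0.150. Between the lipids, Mfsd2a was 0.0440 without the 3 TG, Elovl2, at 0.351 with all TG, was -0.0567 (without RvD6-isomer replicate 12) to 0.492, and Lpcat3 -0.259 to 0.0733 with a TG left out. Agpat4 under RvD6-isomer was -0.302 to 0.0137 with a TG left out. The causes were not tested. Elovl2, with 27 to 203 counts per TG, is the gene most limited by depth.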
